A study of Mus musculus with 12 samples.

Results

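The 10 genes Mertk, Axl, Tyro3, Gas6, Megf10, Gulp1, Itgav, Itgb5, Mfge8 and Xkr8 were taken by name from the 20614 genes of the deposited expression table, and all 10 were present. Their choice was made with earlier results of these data known, so counts of the 10 beside all genes are descriptions and no test. The 10 genes encode receptors, bridging ligands and partners through which an astrocyte takes up dying cells, debris and synapses, except that Xkr8 acts in the dying cell. RNA was sequenced from astrocytes of male mice aged 12 to 14 months in 12 libraries, of which 3 were Cd38+/+ (wild type), 3 Cd38+/- (heterozygous) and 6 Cd38-/- (knockout). All mice came from the C57BL/6J strain, and the mutants, of the line B6.129P2-Cd38tm1Ln/J, carried the Cd38tm1Lnd allele, which disrupts the ectoenzyme gene Cd38 in every tissue and not in astrocytes alone, and the labels name no treatment. Striatum, thalamus and substantia nigra, together called midbrain, were dissociated with papain, depleted of endothelial cells, of myelin and oligodendrocytes and of CD11b-bearing microglia, and astrocytes were then captured with beads against the surface antigen ACSA-2. The labels do not say whether a library came from 1 animal or several, so p-values measure the spread between libraries. The comparisons ask how these engulfment genes differed between astrocytes with full, reduced and disrupted Cd38.

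A dying cell or a discarded synapse exposes the lipid phosphatidylserine on its outer surface, and phagocytes recognise it either directly or through soluble bridging proteins. GAS6 bridges phosphatidylserine to the TAM receptor tyrosine kinases TYRO3, AXL and MERTK, and MFGE8 bridges it to the integrin formed by the ITGAV and ITGB5 chains. MEGF10 is a phagocytic receptor of astrocytes, and GULP1 is an adaptor that binds the inner tail of receptors of this kind. XKR8 is a lipid scramblase that, after cleavage by caspases, exposes phosphatidylserine on the dying cell itself. MERTK and MEGF10 are known for the removal of synapses by astrocytes.

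Values are TPM, a share of each library's transcripts that the authors corrected for transcript length, so levels can be set side by side between genes. The number of reads behind them is unknown. Cd38 checked the labels, with 148.64, 120.04 and 104.88 TPM in the Cd38+/+ libraries, 90.80, 90.70 and 90.36 TPM in the Cd38+/- libraries and a range of 8.54 to 21.86 TPM (median 15.67) in the Cd38-/- libraries, with no overlap between genotypes. The Cd38+/+ libraries stood apart: 13160 to 13516 genes were detected above 0 TPM in them, against 16160 to 16327 in Cd38+/- and 15920 to 17906 in Cd38-/- libraries. A list of 10 astrocyte markers was present in every library, and its summed level was 10570 to 15190 TPM in Cd38+/+, 16860 to 18570 TPM in Cd38+/- and 12300 to 16140 TPM in Cd38-/- libraries. Every Cd38+/- library was therefore above every library of the other genotypes in astrocyte markers. In RNA of sorted cell fractions, more astrocytes and more RNA of these genes per astrocyte cannot be told apart.

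Sequence before the start of transcription was available from RefSeq (GRCm38.p6) for 8 of the 10 genes, and not for Megf10 and Xkr8. The 250 bases upstream are shown for Gas6 and Mertk, the ligand and the receptor of the TAM arm that were highest in the Cd38-/- libraries relative to Cd38+/+, and for Axl, the sister receptor whose Cd38-/- and Cd38+/+ levels overlapped. Capitals mark GC boxes, matches to GGGCGG on either strand. The Gas6 stretch lies on the minus strand of chr8:13494536-13494785, the Mertk stretch on the plus strand of chr2:128698665-128698914 and the Axl stretch on the minus strand of chr7:25788734-25788983.
Gas6: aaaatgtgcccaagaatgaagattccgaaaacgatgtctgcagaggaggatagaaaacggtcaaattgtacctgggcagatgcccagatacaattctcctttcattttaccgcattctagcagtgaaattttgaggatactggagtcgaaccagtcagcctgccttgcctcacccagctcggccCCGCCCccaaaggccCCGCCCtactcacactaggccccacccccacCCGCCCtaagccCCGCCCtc
Mertk: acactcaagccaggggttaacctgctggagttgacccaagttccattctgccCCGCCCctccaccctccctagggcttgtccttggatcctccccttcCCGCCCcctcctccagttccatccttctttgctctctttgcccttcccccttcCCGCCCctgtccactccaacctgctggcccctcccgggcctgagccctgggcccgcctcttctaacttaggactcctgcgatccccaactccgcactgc
Axl: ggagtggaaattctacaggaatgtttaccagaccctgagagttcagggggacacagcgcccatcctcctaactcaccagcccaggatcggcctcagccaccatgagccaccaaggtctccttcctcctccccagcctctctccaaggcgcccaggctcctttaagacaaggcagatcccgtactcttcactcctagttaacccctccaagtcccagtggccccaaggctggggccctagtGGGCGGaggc

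The Gas6 stretch held 4 GC boxes, the Mertk stretch 3 and the Axl stretch 1. Of 16193 upstream stretches of the same length, 45.2% held at least 1 GC box. Among the other genes, Mfge8 had 4 matches, Tyro3 and Itgb5 had 3 each, Gulp1 had 1 and Itgav had 0. None of the 8 stretches held TGANTCA (the AP-1 motif), CACGTG (an E-box) or AGGTCA (a nuclear receptor half-site), which were present in 6.33%, 6.99% and 12.3% of all stretches, both strands searched. The match is a description of letters and says nothing about binding.

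In Cd38+/- astrocytes, 7 of the 10 genes were higher in every library than in any Cd38+/+ library, namely Mertk, Axl, Megf10, Itgav, Itgb5, Mfge8 and Xkr8. Among all 11763 genes tested in this comparison, 15.5% were higher without overlap. A gene was tested if its mean exceeded 5 TPM in at least 1 compared genotype, and it was called if limma on log2(TPM + 1) gave a Storey q under 0.05 with at least a 1.2-fold change. All 10 genes passed the filter in this and both other comparisons, Xkr8 only through its mutant levels. None of the 10 was called, nor was any other gene (0% of those tested, with 1586 genes at an unadjusted limma p under 0.05), and q for the 10 lay between 0.176 and 0.326. Cd38 itself, lower in every Cd38+/- library than in any Cd38+/+ library, was not called either (log2 difference -0.44, limma q = 0.226). The lack of a call in this comparison therefore does not show that a gene was unchanged. At an unadjusted limma p under 0.05, 6 of the 10 were higher, against 9.5% of all genes tested. The log2 fold change was positive for 10 of 10, as it was for 64.4% of all genes, though Axl, Gas6, Itgb5 and Mfge8 turned negative when libraries were scaled to their astrocyte markers. The median of the 10 was 0.65 against 0.18 over all genes. The higher astrocyte marker levels moved with this difference, since 7 of the 10 markers were also higher at p under 0.05 and 0 lower. With the libraries scaled to these markers, 1 of the 10 was at limma p under 0.05, beside 1931 of all 11763 genes in either direction. With the length and GC trend removed it was 2 of the 10, beside 1327 of 11749 genes. The median of the 10 was then 0.28 against -0.045 over all genes.

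In Cd38-/- astrocytes compared with Cd38+/+, Gas6 and Xkr8 were called higher, which is 2 of the 10, where 6.42% of 11722 genes tested were called higher and 8.28% were called in either direction. Gas6, Mertk and Xkr8 were higher in every Cd38-/- library than in any Cd38+/+ library, a pattern that 8.21% of all genes showed. At an unadjusted p under 0.05, 4 of the 10 were higher (Gas6, Gulp1, Mertk and Xkr8), against 17.6% of all genes. The median log2 fold change was 0.48 against 0.15 over all genes. Xkr8 passed the filter only through its mutant levels, and Gulp1 had 1 Cd38+/+ library at 0.78 TPM. With at least 1 TPM required in every library, neither was tested. Of the 8 left, 1 was called (Gas6), beside 775 of 10808 genes in either direction. At limma p under 0.05 it was 2 of the 8, beside 2457 genes. Their median was 0.22 against 0.12 over all genes. Of the 970 genes called without that requirement, 77.5% were higher. Other scalings called other sets of genes. The share higher was 62.7% of 110 called with astrocyte marker scaling and 59.2% of 950 with median-ratio scaling. It was 50.5% of 1115 after quantile normalization and 30.9% of 1405 after a length and GC trend was taken out of each library. Axl, Tyro3, Itgav, Itgb5 and Mfge8 turned negative in the last of these, while Gas6, Mertk, Megf10, Gulp1 and Xkr8 did not. With that trend taken out, 2 of the 10 were at limma p under 0.05, beside 2937 of 11709 genes in either direction. The median of the 10 was then 0.15 against -0.065 over all genes. Leaving out 1 library at a time gave 1 to 4 of the 10 called, 4 without Cd38+/+ replicate 3 and 1 without Cd38-/- replicate 1, 2, 5 or 6. The calls over all genes moved in the same way. They were 3119 of 11779 genes without Cd38+/+ replicate 3, and 112, 74, 93 and 154 genes without Cd38-/- replicate 1, 2, 5 or 6. Both comparisons use the same 3 Cd38+/+ libraries, so their shared direction is not independent.

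Between the mutant genotypes, Axl, Tyro3, Itgb5 and Mfge8 were lower in every Cd38-/- library than in any Cd38+/- library, a pattern of 2.88% of the 11563 genes tested. None of the 10 was called by limma (q between 0.151 and 0.689), where 0.0346% of all genes were called. At an unadjusted p under 0.05, 5 of the 10 were lower (the same 4 and Megf10) and 0 higher, against 5% of all genes that were lower. The median log2 fold change was -0.32 against -0.024 over all genes. Beside it, 7 of the 10 astrocyte markers were lower at p under 0.05 in Cd38-/- than in Cd38+/-, and 4 of the 5 ependymal markers were higher (median log2 fold change 0.67).

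**Figure D1:**
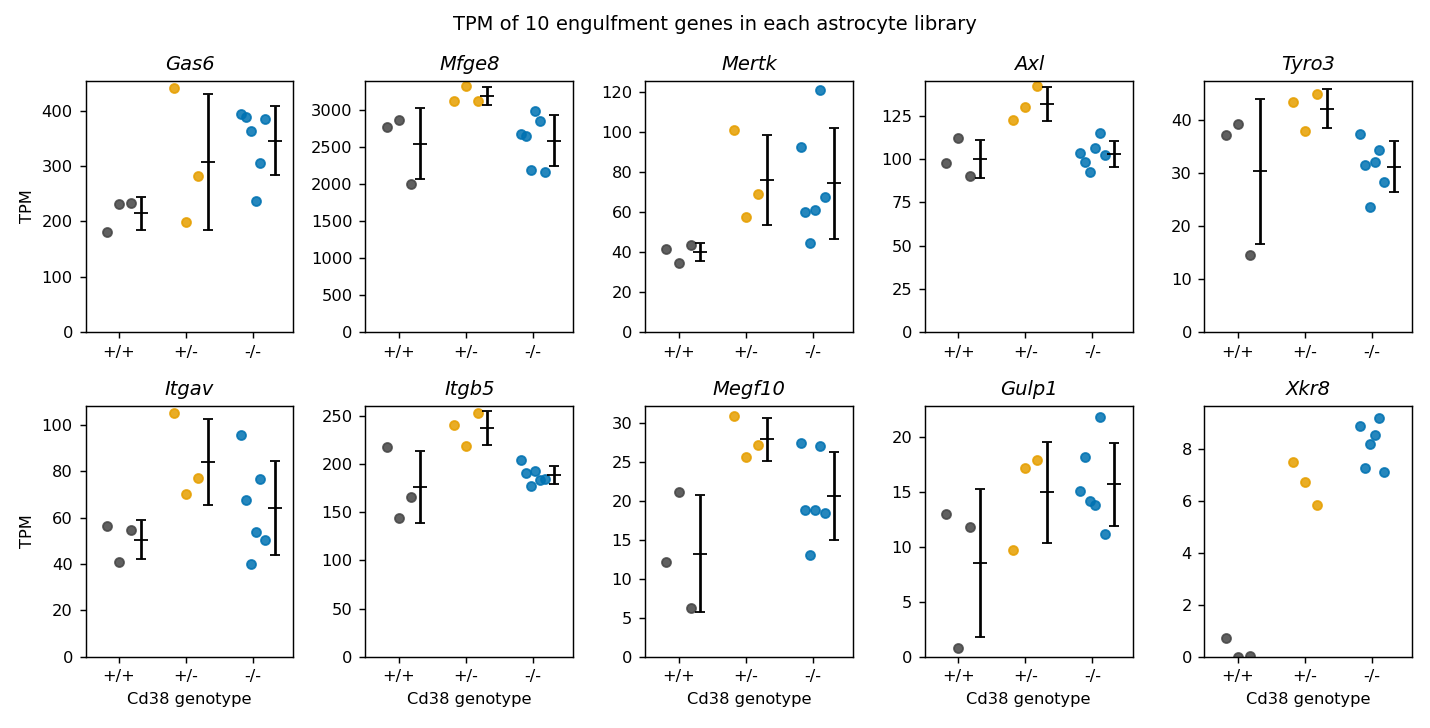
TPM of each of the 10 engulfment genes (y axis, linear, from 0) by Cd38 genotype (x axis). Each point is 1 library, and the bar beside the points is the mean with its SD (n = 3, 3 and 6), left out for Xkr8. Xkr8 is near 0 in every Cd38+/+ library, and the Cd38+/- points of Axl, Itgb5 and Mfge8 lie above those of both other genotypes.

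Gas6, the bridging ligand of the TAM receptors (chromosome 8, 13465374 to 13494490, minus strand, mm10), was at 180.39, 231.29 and 233.22 TPM in the Cd38+/+ libraries. It was at 440.72, 198.86 and 282.85 TPM in the Cd38+/- libraries and ranged from 236.32 to 395.06 TPM (median 375.17) in the Cd38-/- libraries. All 6 Cd38-/- libraries were above the Cd38+/+ range, while 1 Cd38+/- library fell inside it. In Cd38-/- against Cd38+/+, Gas6 rose by 0.67 on the log2 scale (95% confidence interval 0.30 to 1.05, limma q = 0.032), or 1.61-fold in mean TPM. The exact permutation test, two-sided, gave p = 0.0119, the smallest that 6 against 3 libraries allow. In Cd38+/- against Cd38+/+ the log2 difference was 0.45 (-0.17 to 1.06, limma q = 0.302), and it was 0.15 without Cd38+/- replicate 1 and 0.72 without Cd38+/- replicate 2.

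The Gas6 call did not hold under 6 of the 9 fits that left out 1 library, where its limma q ranged from 0.0157 to 0.0816 and its log2 fold change from 0.55 to 0.78. Leaving out Cd38+/+ replicate 1 or Cd38-/- replicate 1, 2, 3, 5 or 6 each ended the call. With the libraries scaled to the same astrocyte marker sum, its log2 fold change was 0.55 (limma q = 0.183). The call also ended with Benjamini-Hochberg adjustment (q = 0.0566), without the mean-variance trend of limma (q = 0.0547), with library quality weights (q = 0.381) and with a log2 fold change of at least 1.2 required. Gas6 shares part of its locus with Tmem255b on the other strand, and reads there may not be told apart. Tmem255b was listed between 2.23 and 14.06 TPM in all libraries, with means of 8.77 in Cd38+/+ and 5.17 in Cd38-/- and with overlap between these genotypes. Pros1, the second TAM ligand, was at 63.8 ± 8.26 TPM in Cd38+/+ (SD, n = 3) and 85.8 ± 15.6 TPM in Cd38-/- (SD, n = 6) and was not called (limma log2 difference 0.41, q = 0.0912).

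Mertk (chromosome 2, 128698956 to 128802894, plus strand) was at 41.57, 34.86 and 43.53 TPM in the Cd38+/+ libraries and at 101.21, 57.70 and 69.17 TPM in the Cd38+/- libraries. In the Cd38-/- libraries it ranged from 44.45 to 121.36 TPM with a median of 64.2. Mertk was thus above the Cd38+/+ range in all 9 mutant libraries, by as little as 44.45 against 43.53 TPM. The log2 difference was 0.88 (0.30 to 1.46, limma q = 0.177) in Cd38+/- and 0.81 (0.23 to 1.39, limma q = 0.0567) in Cd38-/-, and neither was called. With the length and GC trend removed these were 0.51 and 0.47, and with astrocyte marker scaling 0.42 and 0.70. The exact permutation test, two-sided, gave p = 0.1 in Cd38+/-, the smallest for 3 against 3, and p = 0.0476 in Cd38-/-. Without Cd38+/+ replicate 3 or Cd38-/- replicate 3, Mertk passed the limma threshold in Cd38-/- (q = 0.0363 and 0.0416). The mutant genotypes differed by -0.065 (-0.67 to 0.54), well inside the spread between their libraries.

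Axl (chromosome 7, 25757273 to 25788705, minus strand) was highest in the heterozygotes. It was at 97.66, 112.22 and 90.50 TPM in Cd38+/+, at 122.71, 130.04 and 142.45 TPM in Cd38+/- and between 92.42 and 115.07 TPM (median 103) in Cd38-/-. The Cd38+/- libraries overlapped neither other genotype, and the Cd38-/- and Cd38+/+ libraries overlapped each other. The log2 difference was 0.40 (0.012 to 0.78, limma q = 0.228) in Cd38+/- against Cd38+/+, 0.044 (-0.23 to 0.32, limma q = 0.489) in Cd38-/- against Cd38+/+ and -0.35 (-0.56 to -0.15, limma q = 0.179) in Cd38-/- against Cd38+/-.

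Tyro3 (chromosome 2, 119797733 to 119818104, plus strand), the TAM receptor with the lowest mean in every genotype, was at 37.29, 39.24 and 14.58 TPM in Cd38+/+, with Cd38+/+ replicate 3 far below the others. It was at 43.53, 37.98 and 44.99 TPM in Cd38+/- and between 23.56 and 37.43 TPM (median 31.8) in Cd38-/-. Every Cd38-/- library was below every Cd38+/- library (log2 difference -0.43, -0.75 to -0.12, limma q = 0.233). Its difference from Cd38+/+ turned with 1 library, being 0.15 (-0.48 to 0.78) in Cd38-/- with all libraries and -0.30 without Cd38+/+ replicate 3.

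Mfge8 (chromosome 7, 79133768 to 79149060, minus strand), the bridge to the integrins, was the most abundant of the 10 genes in every genotype, above 99.8% of the genes detected in Cd38+/+ libraries and 99.9% in both mutants. It was at 2773.43, 2870.35 and 1994.87 TPM in Cd38+/+ and at 3123.41, 3326.07 and 3125.24 TPM in Cd38+/-. In Cd38-/- it ranged from 2162.94 to 2993.64 TPM with a median of 2664. The Cd38+/- libraries lay above both other genotypes, and Cd38-/- overlapped Cd38+/+. The log2 difference was 0.34 (-0.031 to 0.72, limma q = 0.25) in Cd38+/-, 0.031 (-0.31 to 0.37, limma q = 0.525) in Cd38-/-, and -0.31 (-0.59 to -0.033, limma q = 0.297) between the mutants.

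Itgb5 (chromosome 16, 33829665 to 33949338, plus strand), the beta chain, was at 217.40, 144.29 and 165.76 TPM in Cd38+/+, at 239.96, 218.42 and 252.98 TPM in Cd38+/- and between 177.48 and 203.81 TPM (median 188) in Cd38-/-. It followed the Mfge8 order of genotypes, with every Cd38+/- library highest. Itgb5 differed by 0.45 (0.033 to 0.86, limma q = 0.224) in Cd38+/- against Cd38+/+ and by -0.33 (-0.51 to -0.14, limma q = 0.151) in Cd38-/- against Cd38+/-. Itgav, the alpha chain (chromosome 2, 83724397 to 83806916, plus strand), was at 56.32, 40.71 and 54.58 TPM in Cd38+/+, at 105.00, 70.07 and 76.98 TPM in Cd38+/- and between 39.86 and 95.64 TPM (median 60.8) in Cd38-/-. The Itgav libraries of Cd38-/- overlapped both other genotypes, and the Cd38+/- libraries did not overlap Cd38+/+ (log2 difference 0.71, 0.18 to 1.25, limma q = 0.193).

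Megf10 (chromosome 18, 57133090 to 57297467, plus strand) was at 12.22, 21.19 and 6.25 TPM in Cd38+/+, at 30.97, 25.65 and 27.17 TPM in Cd38+/- and between 13.08 and 27.48 TPM (median 18.8) in Cd38-/-. All Cd38+/- libraries were above the Cd38+/+ libraries, which were themselves widely spread (13.2 ± 7.52 TPM, SD, n = 3). Megf10 differed by 1.17 (0.19 to 2.15, limma q = 0.205) in Cd38+/- and by 0.71 (-0.052 to 1.47, limma q = 0.137) in Cd38-/-, both against Cd38+/+. Without Cd38+/+ replicate 2, its Cd38-/- difference was 1.10 (limma q = 0.0313), and without Cd38+/+ replicate 3 it was 0.29. It was 0.36 with the length and GC trend removed.

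Gulp1, the adaptor (chromosome 1, 44551511 to 44796838, plus strand), was at 12.99, 0.78 and 11.86 TPM in Cd38+/+, at 9.72, 17.24 and 17.98 TPM in Cd38+/- and between 11.17 and 21.84 TPM (median 14.6) in Cd38-/-. The Cd38+/+ libraries overlapped both mutants, and Cd38+/+ replicate 2 alone was low. The log2 difference of 1.26 (0.053 to 2.47, limma q = 0.11) in Cd38-/- fell to 0.29 without that library. A single low wild-type value was also seen in other genes at this level. In all, 809 genes had all 9 mutant libraries between 9 and 22 TPM, a range set around Gulp1 itself. Of these, 78 (9.64%), Gulp1 included, had exactly 1 Cd38+/+ library under 1 TPM. The cause of the low value was not tested.

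Xkr8 (chromosome 4, 132724897 to 132732546, minus strand) had the highest fitted difference of the 10 genes in both comparisons with Cd38+/+. The Cd38+/+ libraries held 0.71, 0 and 0.02 TPM. Xkr8 was at 7.50, 6.72 and 5.87 TPM in the Cd38+/- libraries and between 7.12 and 9.22 TPM (median 8.38) in the Cd38-/- libraries. All 9 mutant libraries were above 5 TPM and all 3 Cd38+/+ libraries under 1 TPM. In Cd38-/- against Cd38+/+, Xkr8 rose by 2.93 on the log2(TPM + 1) scale (2.14 to 3.72, limma q = 0.00427), a size that rests on the pseudocount, from 1.33 to 5.28 between pseudocounts of 5 and 0.1. The exact permutation test, two-sided, gave p = 0.0119, the smallest possible. In Cd38+/- the log2 difference was 2.67 (1.06 to 4.28, limma q = 0.176), which was not called.

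The Xkr8 call held in all 9 fits that left out 1 library (limma q from 0.000446 to 0.0228) and with the astrocyte marker scaling (q = 0.0104), and ended with library quality weights (q = 0.109). Of 20614 genes, 2 were under 1 TPM in all Cd38+/+ libraries and at least 5 TPM in all 9 others. They were Xkr8 and Pstpip1 (named after its values were seen), and 0 genes showed the reverse. Arhgef16, described below, was at 0 to 0.14 TPM in Cd38+/+ and missed these cuts with a lowest Cd38-/- value of 4.31 TPM. The cuts lie close to the values of Xkr8 itself, at most 0.71 TPM in Cd38+/+ and at least 5.87 TPM in the mutants. The count is therefore no separate support for its difference. Single low values were frequent at the Xkr8 level. Of 130 genes between 5 and 10 TPM in all mutant libraries, a range also set around Xkr8, 46 (35.4%), Xkr8 included, had at least 1 Cd38+/+ library under 1 TPM. Xkr8 was the 1 gene (0.769%) of this range that had all 3. The fewer genes detected in Cd38+/+ libraries move with this result, and their part in it was not tested. The neighbouring genes did not share the pattern. Eya3, which ends just beside Xkr8 on the other strand, was at 2.06 to 7.86 TPM in Cd38+/+ and 4.77 to 12.3 TPM in the mutants, and Smpdl3b, on the far side, at 9.21 to 28.3 TPM and 10.2 to 17.67 TPM.

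**Figure D2:**
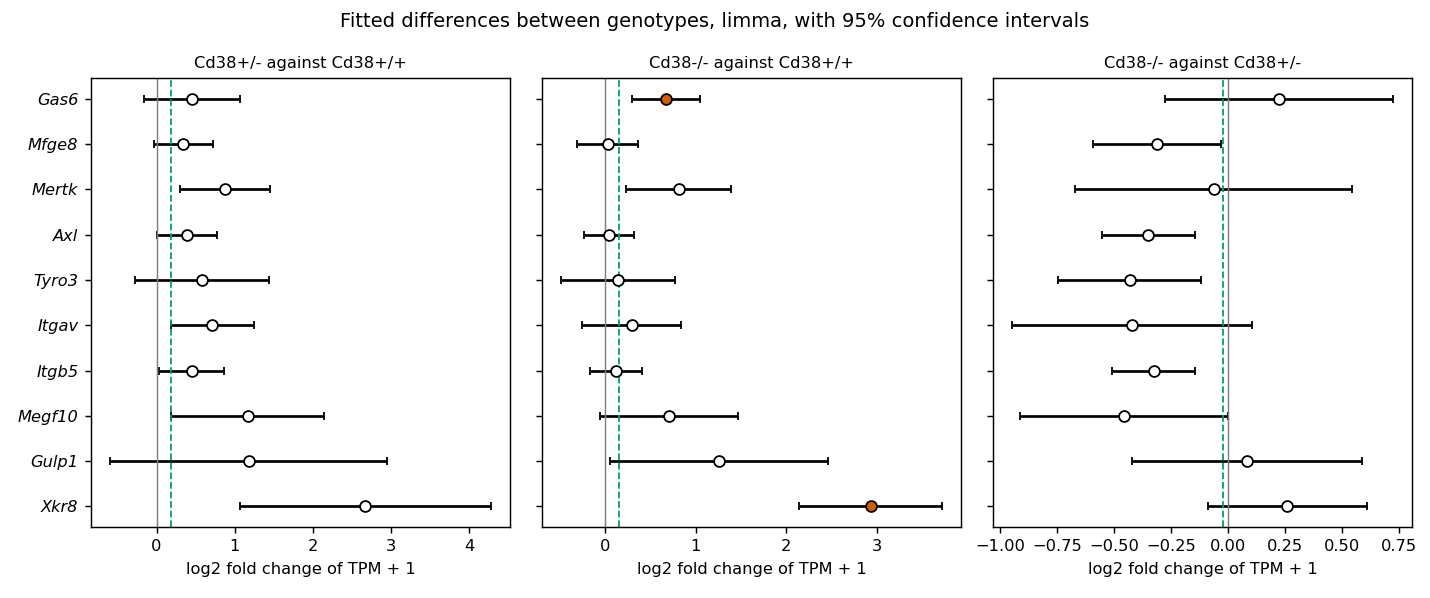
Fitted log2 fold change of TPM + 1 (x axis) of the 10 genes (y axis) in the 3 comparisons, with 95% confidence intervals from limma. Orange points passed the threshold and open points did not, the grey line is 0 and the green dashed line is the median of all genes tested. Gas6 and Xkr8 in Cd38-/- against Cd38+/+ are the called points.

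The order of the levels was much the same in each genotype. In Cd38+/+ libraries it ran from Mfge8 through Gas6, Itgb5, Axl, Itgav, Mertk, Tyro3, Megf10 and Gulp1 to Xkr8. Mfge8, and the steps from Itgb5 to Axl and from Axl to Itgav, did not overlap between libraries, whereas Gas6 with Itgb5, and each neighbouring pair from Itgav to Gulp1, did. In Cd38-/- libraries Gas6 (346 ± 62.9 TPM, SD, n = 6) no longer overlapped Itgb5 (189 ± 9.20 TPM), and Mertk stood above Itgav, with overlap. Together the 10 genes made up 0.262% to 0.349% of the TPM in Cd38+/+ libraries, 0.405% to 0.422% in Cd38+/- and 0.297% to 0.374% in Cd38-/-.

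When each library was scaled to the same summed level of the 10 astrocyte markers, an alternative chosen after the data were seen, the differences of Cd38+/- against Cd38+/+ changed most. Axl, Gas6, Itgb5 and Mfge8 then differed by -0.063, -0.012, -0.012 and -0.12 on the log2 scale. Mertk, Megf10, Itgav, Tyro3, Gulp1 and Xkr8 kept a positive value, and the median of the 10 was 0.20 against -0.26 over all genes. Between the mutants, Itgb5 and Mfge8 went to 0.015 and 0.031 and Axl to -0.010. The marker list is itself a set of genes that differ in part with genotype. In Cd38-/- against Cd38+/+, 2 of the 10 markers were called, both higher. They were Aqp4 (log2 difference 0.708, limma q = 0.02) and Gfap (0.997, limma q = 0.0175). The scaling moved the median of all genes from 0.18 to -0.26 in Cd38+/- against Cd38+/+, from 0.15 to 0.040 in Cd38-/- against Cd38+/+ and from -0.024 to 0.31 between the mutants.

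**Figure D3:**
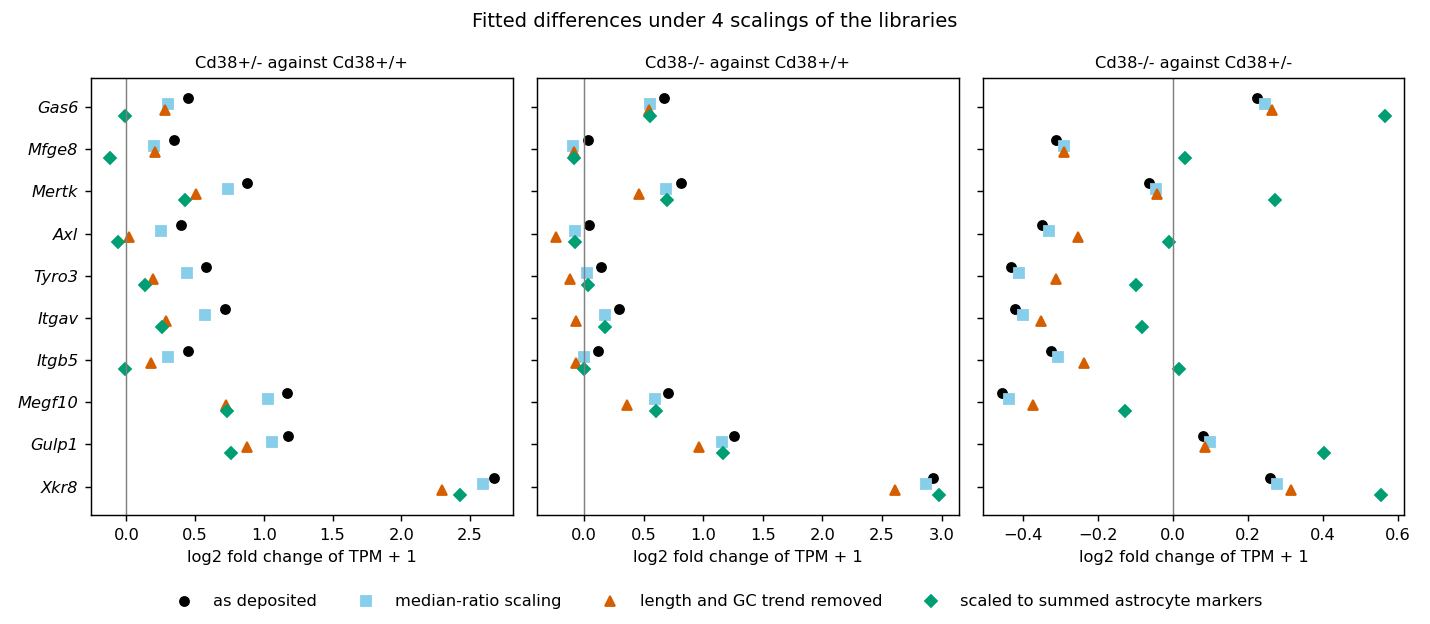
Fitted log2 fold change of TPM + 1 (x axis) of the 10 genes (y axis) in the 3 comparisons under 4 scalings of the libraries, one symbol each. In Cd38+/- against Cd38+/+ the green diamonds of Axl, Gas6, Itgb5 and Mfge8, scaled to the summed astrocyte markers, lie at or below 0, while Xkr8 stays above 2 in every scaling of both comparisons with Cd38+/+.

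Markers of other cell types were present as well. The microglia list of 10 genes summed to 107.4 to 124.8 TPM in Cd38+/+, 137.4 to 168.3 TPM in Cd38+/- and 119.5 to 183.0 TPM in Cd38-/- libraries, and Cx3cr1 and Tmem119 were listed at 0 in all Cd38+/+ libraries. P2ry12 was the 1 microglia marker called higher in Cd38-/-. Mertk, Axl, Gas6 and Itgav are known to be expressed by microglia and other brain cells as well. The choroid plexus list of 5 genes summed to 132.8 to 319.8 TPM in Cd38+/+, 248.1 to 7125 TPM in Cd38+/- and 274.5 to 1948 TPM in Cd38-/- libraries, with Clic6, Folr1 and Ttr called higher in Cd38-/-. The Cd38+/- library with the highest choroid plexus sum, replicate 1, was also the one with the highest Gas6, Mertk, Itgav, Megf10 and Xkr8. It also had the highest endothelial and mural sums of the Cd38+/- libraries. In Cd38-/-, the library with the highest choroid plexus sum, replicate 2, was the highest for 0 of the 10 genes. The endothelial list of 8 genes summed to 430.8 to 2061 TPM in Cd38+/+, 362.9 to 729.1 TPM in Cd38+/- and 391.5 to 1324 TPM in Cd38-/-, and no endothelial marker was called. The oligodendrocyte list of 7 genes ranged from 1295 to 7183 TPM, 3089 to 11010 TPM and 3173 to 17800 TPM in the same order, and in Cd38-/- replicate 3 it exceeded the astrocyte sum (17800 against 12300 TPM). The ependymal list of 5 genes summed to 2910 to 5692 TPM in Cd38+/+, 3005 to 3502 TPM in Cd38+/- and 3819 to 5997 TPM in Cd38-/- libraries. Mural, neuronal, ependymal and oligodendrocyte precursor markers gave no call either. Their part in the values of the 10 genes was not tested.

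Further genes of the engulfment pathway were read from 12 lists. Of 83 genes outside the 10, 66 were tested in Cd38-/- against Cd38+/+, and 4 were called higher (Arhgef16, Cd24a, Lamp2 and Tub) and 1 lower (Rxrb), against the 8.28% called over all genes. None was called in the other comparisons. At an unadjusted limma p under 0.05 in Cd38+/- against Cd38+/+, 9 of 66 were higher and 3 lower, where 9.5% of all genes were higher. Between the mutants 4 of 65 were higher and 6 lower, where 5% of all genes were lower. In Cd38-/- against Cd38+/+, 12 of 66 were higher and 4 lower, where 17.6% of all genes were higher. Over all genes and in either direction, 1586 of 11763, 1299 of 11563 and 2767 of 11722 were at that p in these 3 comparisons, in the same order. Tub, encoding tubby, which is known as a bridging ligand of MERTK, was listed at 0.01 to 1.59 TPM in Cd38+/+ and at 4.10 to 11.41 TPM in Cd38-/- (log2 difference 2.24, limma q = 0.0188). Arhgef16, an exchange factor for the GTPase RhoG, was at 0 to 0.14 TPM in Cd38+/+ and 4.31 to 11.67 TPM in Cd38-/- (2.81, limma q = 0.00616), so like Xkr8 it was nearly undetected in the libraries with fewer detected genes. Cd24a, a do-not-engulf signal, rose by 1.15 (limma q = 0.0276). Lamp2, a lysosomal membrane protein, went from 209 ± 7.18 to 276 ± 15.4 TPM (SD, n = 3 and 6, log2 difference 0.39, limma q = 0.031), but with the length and GC trend removed its difference was 0.070 (limma q = 0.367) and with astrocyte marker scaling it was 0.28 (q = 0.257). Rxrb, a partner of the nuclear receptors that induce engulfment genes, fell by 0.75 (limma q = 0.0235). Leaving out Cd38-/- replicate 1, 2, 5 or 6 each ended the calls of Tub, Cd24a, Lamp2 and Rxrb (limma q up to 0.0783), and astrocyte marker scaling also ended those of Cd24a and Rxrb (q = 0.121 and 0.0884). Tub and Arhgef16, like Xkr8, passed the filter only through their mutant levels, and the size of their log2 differences rests on the pseudocount, from 1.09 to 3.62 for Tub and from 1.18 to 5.58 for Arhgef16 between pseudocounts of 5 and 0.1. The Tub call ended after quantile normalization (limma q = 0.0851).

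By list, TAM receptors gave 0 calls of 3 tested, TAM ligands 1 of 2 (Gas6), the integrin arm 0 of 7 and the Megf10 arm 0 of 6. Bridging and opsonin molecules gave 1 of 10 (Tub), the Rac1 engulfment machinery 1 of 14 (Arhgef16), phosphatidylserine scrambling and flipping 1 of 10 (Xkr8) and do-not-engulf signals 1 of 3 (Cd24a). Phagosome maturation gave 1 of 10 (Lamp2), nuclear receptors 1 of 5 (Rxrb, lower), and other engulfment receptors (0 of 4) and receptor shedding (0 of 2) none. The median log2 fold change of the 66 genes was 0.16, close to the 0.15 over all genes. Among abundant genes of these lists, Anxa5 (626 ± 192 TPM in Cd38+/+ and 800.1 ± 116 TPM in Cd38-/-), Calr (365 ± 34.2 and 453 ± 56.0 TPM), Rac1 (476 ± 78.1 and 441 ± 45.3 TPM) and Lamp1 (897 ± 34.7 and 999 ± 34.6 TPM) were not called (SD, n = 3 and 6).

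**Figure D4:**
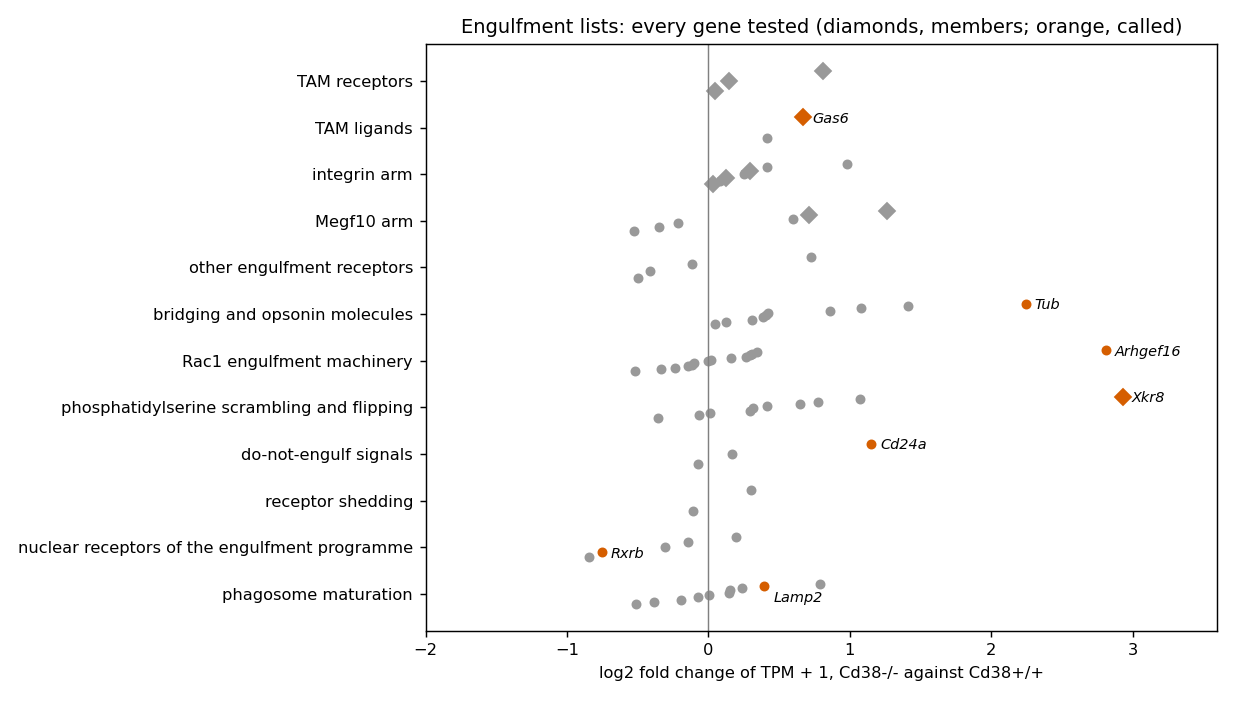
Log2 fold change of TPM + 1 in Cd38-/- against Cd38+/+ (x axis) of every gene tested, by engulfment list (y axis). Diamonds are the 10 genes named at the start, circles the other list genes, and orange marks a call. Xkr8 and Arhgef16 lie farthest to the right, and Rxrb is the called gene below 0.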

How the data were processed

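Ribosomal RNA was depleted and cDNA was made with the SMART-Seq v4 Ultra Low Input kit, a full-length method that does not mark strand, although the labels give the molecule as polyA RNA. Per the submitters' processing notes, reads were trimmed with Trim Galore 0.6.4, mapped to mm10 with STAR 2.7.1a and quantified with RSEM 1.2.28, and DESeq2 1.36.0 is also listed. The authors deposited TPM with 2 decimals per library for 20614 genes. Each library sums to 1000000, so depth is unknown and no counting interval is given.

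Genotypes were taken from the labels. The members and lists were chosen with earlier results of these data known. Genes whose mean exceeded 5 TPM in either compared genotype were fitted as log2(TPM + 1) with limma 3.58.1 (lmFit, eBayes with a trend) under R 4.3.3 and statmod 1.5.0, on the libraries of the 2 genotypes compared. A call needed a Storey q under 0.05 (lambda 0.05 to 0.95) and at least a 1.2-fold change on that scale, which understates low genes; the study names the thresholds and not the test. Exact permutation tests were two-sided and their p-values are not adjusted. Named genes were the 10 members, every other list gene called, the most abundant of each list and Cd38. Positions came from GENCODE vM21, which held 20503 of the genes, and upstream sequence from RefSeq. The procedure was tested on simulated data. Alternatives were other pseudocounts, filters, adjustments, variance models and scalings, a replicate block, a length and GC correction and leaving out each library. Python 3.11.15 and matplotlib 3.10.9 made the figures.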

Additional observations from a re-analysis of the deposited data

Results flagged for a closer look

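Among the 16 genes examined in the 6 Cd38-/- libraries, 2 had a highest library set apart from the others by more than Dixon's critical value of 0.625. Neither was 1 of the 10 genes named at the start. Arhgef16 was at 11.67 TPM in Cd38-/- replicate 2, with a gap of 0.645 of the range. Lamp2 was at 306.52 TPM in Cd38-/- replicate 5, with a gap of 0.751 of the range. Chance sets apart about 1 in 20 groups.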

How the results depend on the processing

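The limits of these data are the unknown depth, the 3 Cd38+/+ libraries with fewer detected genes, and the unequal astrocyte marker sums. Leaving out 1 library at a time moved the genes called from 0 to 10 in Cd38+/- against Cd38+/+, from 74 to 3119 in Cd38-/- against Cd38+/+ and from 0 to 93 between the mutants. The first reached 10 without Cd38+/+ replicate 3. The second was 1829, 1931 and 3119 without Cd38+/+ replicate 1, 2 or 3 and 112, 74, 573, 93 and 154 without Cd38-/- replicate 1, 2, 3, 5 or 6. The third reached 93 without Cd38-/- replicate 4. Members called ranged from 0 to 0, 1 to 4 and 0 to 0. Log2 fold changes that changed sign ranged, in Cd38-/- against Cd38+/+, from -0.025 to 0.13 for Axl, -0.30 to 0.39 for Tyro3, -0.010 to 0.28 for Itgb5 and -0.14 to 0.13 for Mfge8, and between the mutants from -0.24 to 0.16 for Mertk, -0.051 to 0.52 for Gas6 and -0.18 to 0.23 for Gulp1.

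In Cd38+/- against Cd38+/+, where 0 genes were called, 663 were called without a filter (1 member, Xkr8), 9 without the variance trend (1 member, Xkr8), 30 with library quality weights (their estimation stopped before convergence) and 1464 in one fit of all 12 libraries (4 members, Axl, Megf10, Itgb5 and Xkr8). In Cd38-/- against Cd38+/+, 2283 genes were called without a filter, 326 with Benjamini-Hochberg adjustment, 337 with a log2 fold change of at least 1.2, 1 with quality weights, 1822 in the fit of all libraries and 110 with astrocyte marker scaling. There, 1 member was called with a TPM of at least 1 in every library (Xkr8 was not tested), with Benjamini-Hochberg adjustment, with the higher fold threshold, without the trend and with astrocyte marker scaling, and 0 with quality weights (Xkr8 q = 0.109 and Gas6 q = 0.381 in limma). Between the mutants, where 4 genes were called, 2 were called with the higher fold threshold, 3120 with quality weights (8 members), 1 with median-ratio scaling, 1 in the fit of all libraries, 2 with the length and GC trend removed and 4008 with astrocyte marker scaling (1 member, Xkr8, q = 0.0258). The cause was not tested.

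In Cd38-/- against Cd38+/+, Axl was -0.076 with median-ratio scaling, -0.24 with the length and GC trend removed and -0.073 with astrocyte marker scaling, and Mfge8 was -0.091, -0.081 and -0.088 in the same order and -0.016 with quality weights. With the length and GC trend removed, Tyro3 was -0.12, Itgav -0.064 and Itgb5 -0.063. In Cd38+/- against Cd38+/+, astrocyte marker scaling gave -0.063 for Axl, -0.0123 for Gas6, -0.0121 for Itgb5 and -0.12 for Mfge8. Between the mutants it gave 0.27 for Mertk, 0.015 for Itgb5 and 0.031 for Mfge8, and quality weights gave 0.053 for Mertk and -0.25 for Gulp1.

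Same-numbered libraries did not regularly deviate together (r = -0.004, 0.041 and 0.045 in Cd38+/- with Cd38+/+, -0.092, -0.039 and -0.063 in Cd38-/- with Cd38+/+, and 0.454, -0.307 and -0.007 between the mutants). Between the mutants, libraries of unlike number ranged from -0.537 to 0.515. These values gave no sign that the numbers pair the samples, and with so few libraries they cannot exclude it. With the replicate block, 4, 2 and 2 genes and 0, 0 and 0 members were called in the 3 comparisons (Gas6 and Xkr8 at limma q = 0.318), and Axl and Mfge8 were -0.024 and -0.0101 in Cd38-/- against Cd38+/+. With the replicate block and the length and GC trend removed, 1, 2 and 306 genes and 0, 0 and 0 members were called, and in Cd38-/- against Cd38+/+ Axl was -0.34, Tyro3 -0.18, Itgav -0.085, Itgb5 -0.071, Mfge8 -0.14 and Lamp2 -0.0081.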
